A study of Mus musculus with 4 samples.

Results

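Osteoclasts, the bone-resorbing cells that form by fusion of monocyte-lineage precursors, were looked for in the bone of unloaded mice through 9 genes of their differentiation and resorption: Acp5, Ctsk, Atp6v0d2, Dcstamp, Ocstamp, Nfatc1, Oscar, Calcr and Ckb. They were found by symbol and are 9 of the 31053 genes counted. The 4 single-cell libraries, 1 mouse each, came from C57BL/6J wild-type femurs and tibiae after the marrow was flushed out and the bone was enzymatically digested. Ctrl mice (replicates 1 and 2) were housed without suspension, and mice with hindlimb unloading (HLU, replicates 1 and 2) were suspended by the tail with the head down for 28 days. No transgene, deletion or drug was used in either group. The study's methods give an age of 8 weeks while the deposited description gives postnatal day 28, and the methods allow either sex. Cells were captured in droplets, and transcripts were counted by their unique molecular identifiers (UMIs). Here a barcode was retained with at least 1000 UMIs and at most 10% mitochondrial UMIs. No upper limit was set, so that barcodes over 40000 UMIs stayed in. Whether multinucleated cells were captured was not tested.

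RANKL (Tnfsf11) on cells of the osteoblast lineage binds RANK (Tnfrsf11a) on precursors, with M-CSF (Csf1) as the other required factor, and osteoprotegerin (Tnfrsf11b) is a soluble decoy for RANKL. Signalling through RANK and through immunoreceptors such as OSCAR induces NFATc1, the master transcription factor of the lineage, which drives the fusion genes Dcstamp, Ocstamp and Atp6v0d2 and the resorption genes Acp5 and Ctsk. Mature osteoclasts are large and multinucleated. Several of these genes are not restricted to osteoclasts: Ctsk is also expressed by periosteal and other stromal cells, Ckb widely, and Nfatc1 in lymphocytes and endothelium.

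The retained barcodes numbered 7346 and 7652 in Ctrl replicates 1 and 2 and 7772 and 9715 in HLU replicates 1 and 2, with 56542155, 59530455, 46148815 and 99579184 UMIs. Over 40000 UMIs lay 6 and 17 Ctrl and 15 and 230 HLU barcodes, and 29, 140, 186 and 582 barcodes in that order had over 0.2% haemoglobin UMIs. The libraries also differed in what they held: barcodes of clusters named stromal-, osteoblast- or chondrocyte-like from marker lists numbered 3757 and 2482 in Ctrl but 111 and 221 in HLU. Monocyte- or macrophage-like barcodes numbered 265 and 401 in Ctrl and 514 and 1549 in HLU. A lower level summed over a library may thus mean fewer cells of a type or less RNA per cell, which such a sum cannot tell apart. Library pairs shared 13 to 22 retained barcode sequences. None of the 28 clusters met the marker threshold for osteoclasts, so the name of the 9 genes is a name of genes and not of a cell population found here. The nearest cluster to the osteoclast marker list stayed unnamed, and its 715 barcodes held 4 Acp5 and 8 Ctsk UMIs.

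The cluster names rested on a detail of the processing. With gene names sorted by another rule the same 2000 variable genes entered in another order, and the partition changed (adjusted Rand index 0.82, where 1 is identity). No cluster was then called macrophage- or osteoblast-like, although 2507 of the 2729 monocyte- or macrophage-like barcodes here were again named monocyte-like and 2736 of the 2752 stromal- or osteoblast-like ones stromal-like. These pooled classes are therefore used throughout. The stromal and osteoblast pool was chosen after seeing the data, and its osteoblast-like cluster was led by Myoc, Apod, Ogn and Aspn rather than by its own markers.

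The promoters of Ctsk and Ckb, whose levels differed most, and of Acp5, which encodes the tartrate-resistant acid phosphatase (TRAP) used to stain osteoclasts, are shown because NFATc1 acts through GGAAA elements. The 250 bases before each start are from RefSeq on GRCm38.p6, 5′ to 3′ on the gene's strand, with matches to GGAAA (read as TTTCC on the reverse strand) and to TATAAA, the TATA box, in capitals; both strands were searched. They are the regions chr3:95498960-95499209 on the plus strand for Ctsk, chr12:111672339-111672588 on the minus strand for Ckb and chr9:22135747-22135996 on the minus strand for Acp5, where the most upstream of 3 listed starts was taken.
Ctsk: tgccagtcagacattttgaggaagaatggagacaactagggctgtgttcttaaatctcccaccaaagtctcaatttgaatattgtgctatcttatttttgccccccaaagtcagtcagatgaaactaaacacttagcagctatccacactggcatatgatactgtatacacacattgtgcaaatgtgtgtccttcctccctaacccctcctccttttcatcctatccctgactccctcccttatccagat
Ckb: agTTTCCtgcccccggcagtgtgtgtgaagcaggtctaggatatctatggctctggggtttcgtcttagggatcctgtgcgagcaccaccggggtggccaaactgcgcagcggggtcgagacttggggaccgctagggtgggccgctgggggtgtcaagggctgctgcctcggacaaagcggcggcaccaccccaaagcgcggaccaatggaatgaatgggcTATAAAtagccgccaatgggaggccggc
Acp5: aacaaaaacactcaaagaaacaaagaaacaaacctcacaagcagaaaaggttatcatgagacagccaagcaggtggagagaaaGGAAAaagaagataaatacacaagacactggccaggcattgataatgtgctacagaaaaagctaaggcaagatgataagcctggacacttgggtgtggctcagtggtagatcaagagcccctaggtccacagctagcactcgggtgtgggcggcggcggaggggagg
Ctsk had 0 matches in this window, Ckb had 1 on the reverse strand 248 bases before the start, and Acp5 had 1 on the forward strand 167 bases before it. Of 32851 mouse promoter windows of this length, 55.6% held a GGAAA on either strand, so a match here is the usual case and a description of letters only. The Ckb window also held TATAAA 28 bases before the start, a motif in 12.4% of all windows on either strand. Promoter entries were matched for 5 of the 9 genes.

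Ctsk, which encodes cathepsin K, the collagen-degrading protease of the resorption pit (ENSMUSG00000028111, chr3:95499256-95509362 on mm10), was the member with the clearest difference between groups. The Ctrl libraries held 5903 and 8523 Ctsk UMIs and the HLU libraries 1094 and 1210, or 104.4 and 143.2 against 23.7 and 12.2 CPM, the UMIs of a gene scaled to a common total of UMIs. Both HLU libraries lay below both Ctrl libraries, with means of 124 ± 27.4 and 17.9 ± 8.17 CPM (SD, n = 2 each), a 6.90-fold lower level. On counts summed over all retained barcodes, the log2 fold change of HLU against Ctrl was −2.77 (SE 0.41, adjusted p = 0.0131, edgeR's quasi-likelihood test with Benjamini-Hochberg adjustment over 15425 genes). The share of barcodes with a Ctsk UMI was 15.6% and 15.4% in Ctrl and 1.54% and 2.12% in HLU. Without Ctrl replicate 1 the adjusted p was 0.109 and without Ctrl replicate 2 it was 0.103 (edgeR), fits in which 0 of 16032 and 562 of 15996 genes were called at all. Over the 10 alternatives the log2 fold change stayed between −3.21 and −2.39.

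Ckb, the brain-type creatine kinase that supplies ATP in resorbing osteoclasts (ENSMUSG00000001270, chr12:111669361-111672338), followed the same order. Its UMIs were 1792 and 1664 in Ctrl and 296 and 277 in HLU, or 31.7 and 28.0 against 6.41 and 2.78 CPM. The groups did not overlap, at 29.8 ± 2.65 and 4.60 ± 2.57 CPM (SD, n = 2 each) and a log2 fold change of −2.69 (SE 0.44, edgeR adjusted p = 0.0170). In the same fits without Ctrl replicate 1 or 2 Ckb was not called (adjusted p = 0.160 and 0.0967, edgeR), while its log2 fold change stayed between −3.29 and −2.22 over the alternatives.

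Atp6v0d2, a subunit of the vacuolar proton pump that also acts in precursor fusion, gave 230 and 306 UMIs in Ctrl and 132 and 74 in HLU, or 4.07 and 5.14 against 2.86 and 0.743 CPM. Both HLU values were below both Ctrl values, yet the fold change of −1.36 on the log2 scale did not pass (SE 0.65, edgeR adjusted p = 0.203). Acp5 gave 646 and 2745 UMIs in Ctrl and 987 and 2122 in HLU, at 11.4, 46.1, 21.4 and 21.3 CPM. The HLU libraries lay between the Ctrl libraries, so the spread within Ctrl exceeded the difference (log2 fold change −0.39, SE 0.64, edgeR adjusted p = 0.70). Nfatc1 gave 1840, 1718, 1406 and 1788 UMIs, or 32.5 and 28.9 CPM in Ctrl and 30.5 and 17.96 in HLU, and the groups overlapped (log2 fold change −0.32, edgeR adjusted p = 0.514).

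The receptors and fusion proteins had few UMIs. Dcstamp and Ocstamp, membrane proteins required for fusion, had 12, 30, 26 and 34 UMIs and 5, 66, 22 and 18 UMIs in the same library order, and neither passed (edgeR adjusted p = 0.725 and 0.623). Oscar, the collagen-binding receptor that costimulates the lineage, had 3 and 25 UMIs in Ctrl and 1 and 0 in HLU, and Calcr, the calcitonin receptor of mature osteoclasts, had 10 UMIs in HLU replicate 2 and none elsewhere. Of these 10, 8 lay in 4 monocyte- or macrophage-like barcodes and 2 in neutrophil-progenitor-like ones. Oscar and Calcr were too sparse to be tested, and a library with 0 UMIs of a gene allows up to 3 by counting error alone.

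Over all genes, 4.95% were called higher and 15.9% lower in HLU (764 and 2455 genes, against 1537 and 2912 with DESeq2). Of the 7 members tested, 2 were called lower, Ctsk and Ckb, and 0 higher. Groups that did not overlap with HLU lower were found for 3 members, against 34.6% of all genes tested, so that count is near the background. The median log2 fold change was −0.88 over the 7 members and 0.04 over all genes. Over the whole libraries all 8 stromal markers were detected everywhere and summed to 18768 and 15460 CPM in Ctrl and 175 and 248 in HLU, so Ctsk and Ckb fell together with them, and their part in these differences was not tested. Here p-values measure the spread between 1-mouse libraries of each group.

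**Figure D1:**
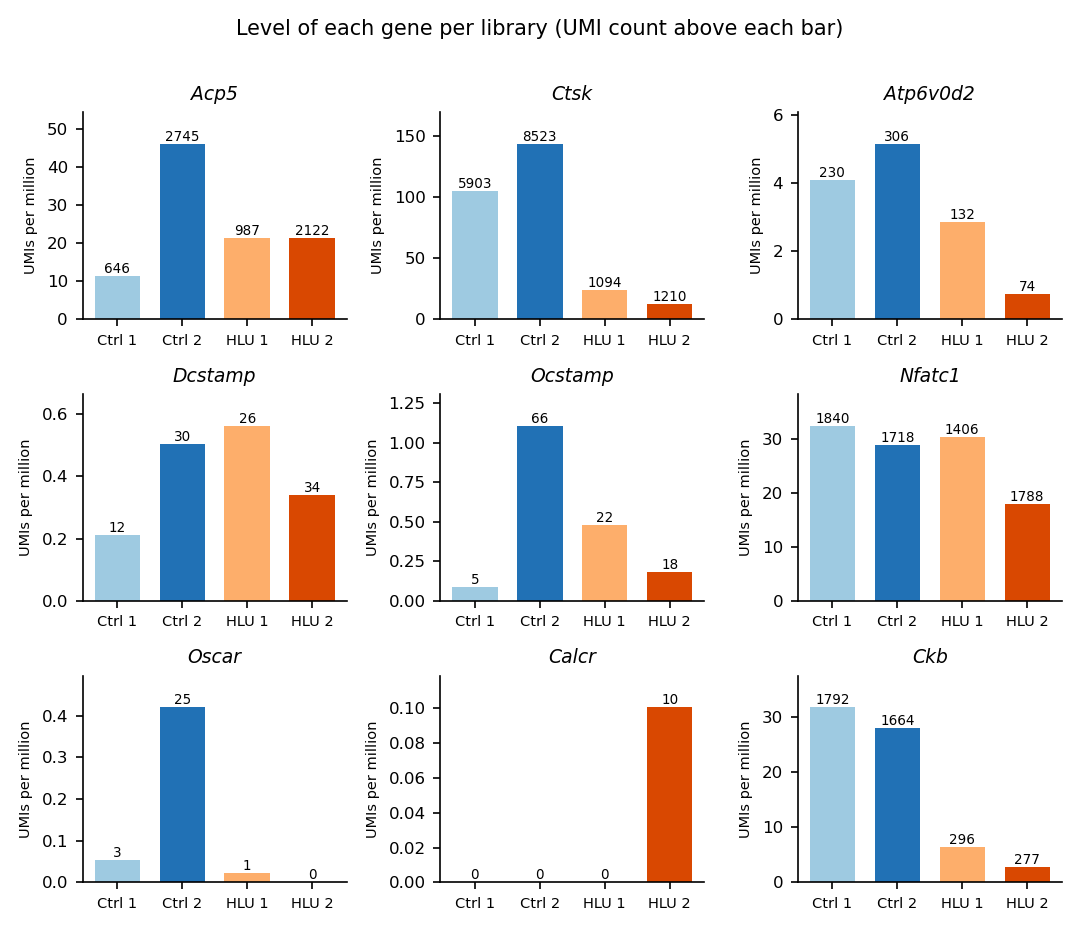
CPM, the UMIs of a gene scaled to a common total of retained UMIs, of each of the 9 genes in the 4 libraries, with 1 bar per library from 0 and its UMI count above the bar. Ctsk and Ckb are lower in both HLU libraries than in both Ctrl libraries, whereas Acp5 in HLU (21.4 and 21.3 CPM) lies between its Ctrl values of 11.4 and 46.1.

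The question of which cells held these transcripts gave different answers for each gene and group. Of all 16730 Ctsk UMIs, 63.4% lay in stromal- or osteoblast-like barcodes and 24.5% in monocyte- or macrophage-like ones. In Ctrl these shares were 70.9% and 16.5%, whereas in HLU they were 16.3% and 74.7%. Atp6v0d2 moved the same way, with 65.1% of its UMIs in stromal- or osteoblast-like and 16.4% in monocyte- or macrophage-like barcodes in Ctrl against 0.485% and 86.4% in HLU. For Ckb the stromal or osteoblast share was 44.4% in Ctrl and 15.5% in HLU, and the monocyte or macrophage share 17.1% and 65.6%. Acp5 lay mainly in monocyte- or macrophage-like barcodes when the libraries of each group were pooled (60.4% and 79.9%). In Ctrl replicate 1 alone, 161 of 646 Acp5 UMIs lay there and 375 in stromal- or osteoblast-like barcodes. In Ctrl replicate 2 these were 1886 and 531 of 2745. The numbers of barcodes of each class also differed, as given above, and their part in these shares was not tested.

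Within stromal- or osteoblast-like barcodes Ctsk stood at 338.2 and 523 CPM in Ctrl and 195.9 and 100.5 in HLU, from 4897, 5338, 161 and 214 UMIs. The HLU values were lower, while the share of these barcodes with a Ctsk UMI, at 41.4% (exact 95% interval 39.1 to 43.8%) and 59.0% (55.7 to 62.3%) in Ctrl and 48.3% (35.2 to 61.6%) and 44.1% (34.7 to 53.9%) in HLU, overlapped between groups. The class was a different mixture in each library, since 860 of the 1697 barcodes of Ctrl replicate 1 lay in the cluster named osteoblast-like, against 250, 17 and 19 in the others. In the cluster named stromal-like alone, Ctsk stood at 413.8 and 570.3 CPM in Ctrl and 215.4 and 103.6 in HLU, and HLU was again lower. Atp6v0d2 showed the widest gap within the class, with 180 and 169 UMIs in 1697 and 884 Ctrl barcodes and 0 and 1 in 60 and 111 HLU barcodes. Acp5 was also lower there, at 25.9 and 52.0 CPM against 1.22 and 15.97, from 375, 531, 1 and 34 UMIs. With chondrocyte-like barcodes included, stromal markers stood at 27972 and 28417 CPM in Ctrl and 4941 and 6377 in HLU. Neutrophil markers stood at 6264 and 9408 CPM in Ctrl and 21414 and 20552 in HLU, and osteoblast markers at 1263 and 1172 against 4001 and 1435. The part of these marker differences in the lower member levels was not tested.

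Monocyte- or macrophage-like barcodes had 79.3 and 453.3 Ctsk CPM in Ctrl and 125.6 and 33.7 in HLU. Acp5 stood at 52.3, 400.1, 118 and 65.1 CPM there. For both genes Ctrl replicate 2 was highest and the groups overlapped. The share of these barcodes with an Acp5 UMI was 30.9% in HLU replicate 2 and 7.17%, 15.96% and 7.78% in the other libraries, and after thinning each barcode to 1000 UMIs it was 6.73% against 2.08%, 4.98% and 2.16%. HLU replicate 2 thus had the most barcodes with Acp5 but not the highest Acp5 level in this class. The class includes a macrophage-like cluster led by Cd5l, Fcna and C1qa, with 7 and 15 Ctrl and 2 and 67 HLU barcodes. It held 0, 12, 0 and 278 Acp5 UMIs, seen in 74.6% of its HLU replicate 2 barcodes. The other clusters of the class also had their highest shares in that library (36.6% and 17.4%). The part of this mixture was not tested.

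A background was read from neutrophil-like barcodes, and its source, such as free RNA in the droplets, was not tested. Neutrophil-like barcodes, which should lack Ctsk, had a Ctsk UMI in 2.20%, 4.56%, 0.446% and 0.288%. They were shallower, with medians of 3197.5 to 6228.5 UMIs against 6264 to 12677 in stromal- or osteoblast-like barcodes. Thinned to 1000 UMIs a barcode, the shares were 0.778%, 1.42%, 0.154% and 0.0530% in neutrophil-like and 16.2%, 23.8%, 13.6% and 9.37% in stromal- or osteoblast-like barcodes, so the latter stood above the background in every library. Ctsk was also found in 1 B-like cluster, singled out after its values were seen. It held 138 and 244 Ctsk UMIs in 140 and 170 Ctrl barcodes, with a UMI in 32.9% and 31.8% of them, and 0 UMIs in 92 and 60 HLU barcodes. Markers of stromal cells moved with it: in all B-like barcodes they summed to 12987 and 9080 CPM in Ctrl (8 and 7 of 8 detected) and to 4.50 and 6.04 CPM in HLU (5 and 3 of 8), and their part in the B-like Ctsk was not tested. In neutrophil-like barcodes they summed to 904 and 989 CPM in Ctrl and 3.50 and 2.76 in HLU.

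Nfatc1 was spread over many cells, with 26.9% of its UMIs in chondrocyte-like, 24.6% in neutrophil-like, 13.2% in stromal- or osteoblast-like and 12.8% in monocyte- or macrophage-like barcodes. In B-like barcodes it stood at 30.5 and 40.3 CPM in Ctrl and 66.1 and 62.6 in HLU, and in stromal- or osteoblast-like ones at 36.1 and 31.4 against 14.6 and 18.3. The B-like values were higher and the stromal or osteoblast values lower in both HLU libraries. The B-like class was a different mixture in each group. Its cluster with Ctsk gave 140 of 304 and 170 of 491 barcodes in Ctrl and 92 of 733 and 60 of 516 in HLU. The part of this mixture in the Nfatc1 values was not tested. Dcstamp (89.2% of 102 UMIs), Ocstamp (77.5% of 111), Calcr (8 of 10), Acp5 (69.7% of 6500) and Oscar (19 of 29) were the members most concentrated in monocyte- or macrophage-like barcodes. Acp5 also reached 74.1, 143, 48.2 and 118.1 CPM in T/NK-like barcodes, where its groups overlapped.

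**Figure D2:**
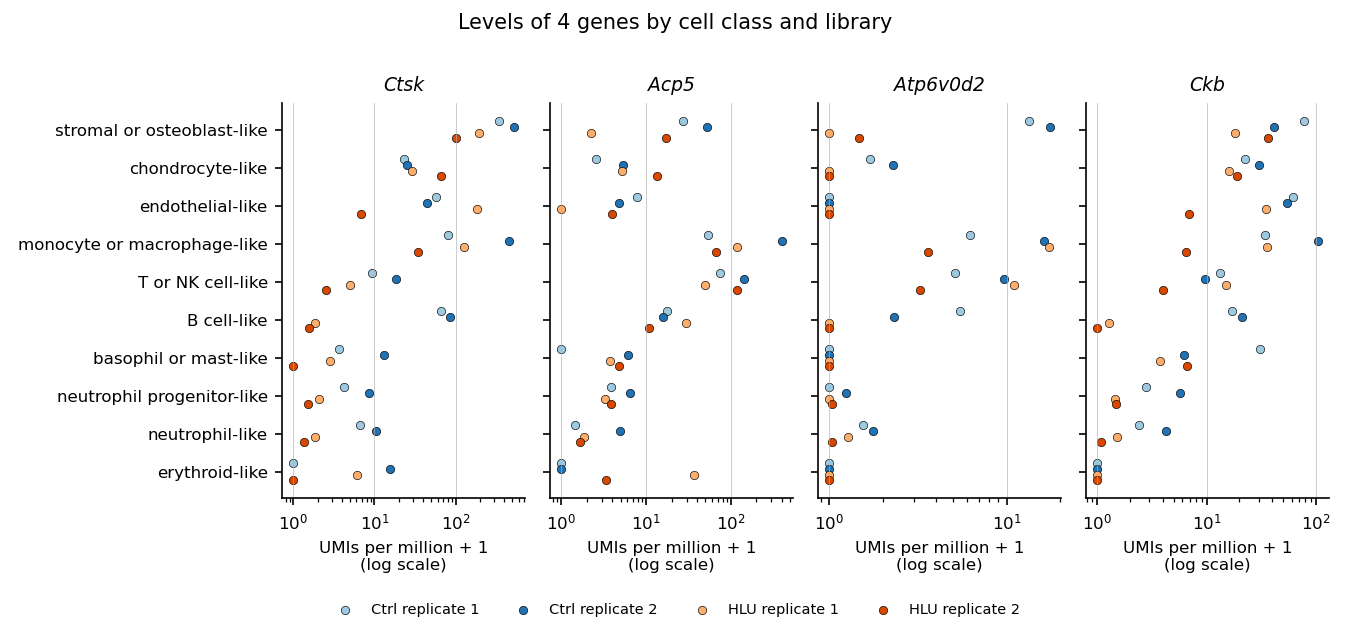
Levels of Ctsk, Acp5, Atp6v0d2 and Ckb by cell class, in UMIs scaled to a common total of that class's UMIs (CPM) plus 1 on a log axis, with a point per library. Ctsk is highest in stromal- or osteoblast-like barcodes of Ctrl replicate 2 (523) and reaches 453.3 in monocyte- or macrophage-like barcodes of the same library.

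Sums over monocyte- or macrophage-like barcodes were tested to hold the cell type closer to fixed. Among 10858 genes, 0% were called higher and 0.0829% lower in HLU by edgeR's quasi-likelihood test, with 599 genes at an unadjusted p under 0.05. None of the 7 members tested was called: Acp5 at −1.31, Ctsk at −1.77, Ckb at −1.84 and Dcstamp at −1.04 on the log2 scale each had an edgeR adjusted p of 0.776, with 0 members at an unadjusted p under 0.05. Atp6v0d2 (−0.22) and Nfatc1 (0.38) were closer to 0. The groups did not overlap with HLU lower for 2 members, Dcstamp and Ckb, against 19.9% of all genes, and for Ckb only after TMM scaling (34.7 and 101.5 against 33.4 and 5.59 CPM). The median log2 fold change was −1.31 over the 7 members and 0.03 over all genes. Without HLU replicate 1 edgeR called Acp5, Ctsk, Ckb, Atp6v0d2, Dcstamp, Ocstamp and Oscar lower, in a fit that called 2233 of 11109 genes lower and 2249 higher, and with any other library left out it called no member. With no filter on low counts it called Ctsk, Acp5, Ckb and Oscar lower, in a fit that called 429 of 17454 genes lower. All 19 Oscar UMIs of this class lay in Ctrl replicate 2, so its call rests on 1 library. Transcripts of other cells moved with the groups here: all 8 stromal markers but Adipoq were detected in both Ctrl libraries and summed to 1225 and 650 CPM, while in HLU they summed to 2.80 and 15.3 CPM with 3 and 7 of 8 detected. Their part in the differences was not tested.

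In stromal-, osteoblast- and chondrocyte-like barcodes summed together, edgeR called 0.863% of 13565 genes higher and 1.16% lower. Atp6v0d2 was the 1 member of 5 tested that was called lower, with 195 and 194 UMIs in Ctrl and 0 and 1 in HLU (log2 fold change −5.26, SE 0.71, edgeR adjusted p = 0.0455), a fitted value that depends on the prior count. That call was lost in 5 of 15 alternatives: without Ctrl replicate 1 (adjusted p = 0.209) or replicate 2 (0.224), without barcodes over 40000 UMIs (0.0713), without doublets (0.0577) and with no integration (0.102), all by edgeR, and of these fits all but that without doublets called 0 genes. Ctsk (−1.16, adjusted p = 0.0845), Ckb (−1.12, adjusted p = 0.130), Nfatc1 (−0.69, adjusted p = 0.136) and Acp5 (−1.11, adjusted p = 0.358) were not called by edgeR. The groups did not overlap with HLU lower for 4 of the 5, against 31.3% of all genes, and the median log2 fold change was −1.12 against −0.02. These sums came from 111 and 221 HLU barcodes, in which all 10 neutrophil markers were detected and stood at 21414 and 20552 CPM against 6264 and 9408 in Ctrl, and their part in the values was not tested. With doublets left out, 110 and 154 of these HLU barcodes remained, against 3558 of 3757 and 2384 of 2482 in Ctrl. The UMIs of the HLU replicate 2 sum then fell from 3567496 to 2074055.

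Co-occurrence within single barcodes was then described, since an osteoclast should hold several members. At least 1 member was seen in 36.3% and 35.3% of Ctrl and 17.5% and 23.3% of HLU barcodes. UMIs of at least 4 members were found in 20 of 7346 (0.272%, exact 95% interval 0.166 to 0.420%) and 27 of 7652 (0.353%, 0.233 to 0.513%) Ctrl barcodes. In HLU they were found in 7 of 7772 (0.0901%, 0.0362 to 0.185%) and 2 of 9715 (0.0206%, 0.00249 to 0.0743%). These intervals cover counting error only. Both HLU shares were below both Ctrl shares, at 0.313 ± 0.057% and 0.055 ± 0.049% (SD, n = 2 each), with an exact two-sided permutation p of 0.33, the smallest that 2 against 2 libraries can give. When each barcode was thinned to 1000 UMIs, 1, 7, 2 and 1 barcodes remained, and the groups overlapped (exact permutation p = 0.67). At least 6 members were held by 1 and 8 Ctrl and 4 and 2 HLU barcodes, and there the shares overlapped between groups. No barcode held all 9, and 3 barcodes of Ctrl replicate 2 held 8.

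These barcodes were of mainly 2 classes. In Ctrl 17 and 13 of them were stromal- or osteoblast-like and 2 and 9 monocyte- or macrophage-like, whereas in HLU 0 and 0 were of the first class and 6 and 2 of the second. The first class had 1697 and 884 barcodes in Ctrl but only 60 and 111 in HLU. Barcodes with at least 4 members were deep, so more UMIs of any gene could be seen in them. Their medians were 19315.5 UMIs in the stromal- or osteoblast-like and 22497 in the monocyte- or macrophage-like ones. Among monocyte- or macrophage-like barcodes the share with at least 4 members was 0.755% and 2.24% in Ctrl and 1.17% and 0.129% in HLU, and the groups overlapped (exact permutation p = 0.67). Doublet calls made up 2 of these 2 and 5 of these 9 Ctrl barcodes and 0 of those in HLU. Over all classes, 17 and 19 Ctrl and 7 and 2 HLU barcodes with at least 4 members were left without doublets. The non-members that led all barcodes with at least 4 members over the other monocyte- or macrophage-like barcodes were Slc9b2, Clec3b, Igfbp2, Msmp, Col22a1, Postn, Col3a1, Ibsp, Myoc and Sfrp4. Of these, Slc9b2 is an osteoclast gene, while Postn, Col3a1 and Ibsp encode matrix proteins of stromal cells and bone. The first set held 30 stromal- or osteoblast-like barcodes and the comparison set none. The part of this difference in the list was not tested.

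**Figure D3:**
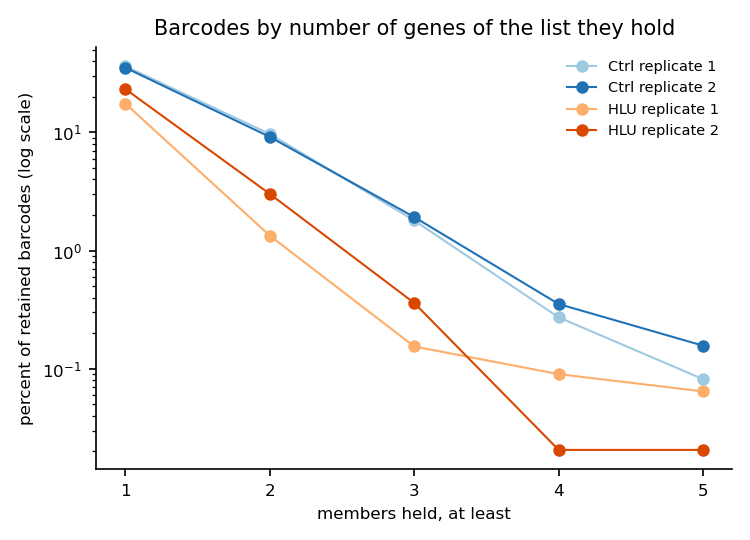
Percent of retained barcodes with UMIs of at least 1 to 5 of the 9 genes, 1 line per library, on a log axis. The Ctrl lines lie above the HLU lines from 1 to 5 genes, with 0.272% and 0.353% against 0.0901% and 0.0206% at 4 genes. At 6 or more genes, which are not drawn, the groups overlapped.

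Pairs of members were counted against the product of their shares within each library, as a description in which depth was not held equal. In monocyte- or macrophage-like barcodes of Ctrl, Acp5 and Ctsk occurred together in 33 barcodes where the product gave 11.4, and in HLU in 54 where it gave 30.8. Atp6v0d2 and Ocstamp occurred together in 6 Ctrl and 7 HLU barcodes of this class, with products of 0.249 and 0.104, and without the 18 barcodes described next in 0 and 1. Acp5 and Ctsk without those 18 barcodes met in 23 Ctrl barcodes, with a product of 8.88, and in 46 HLU barcodes, with a product of 29.1. In Ctrl stromal- or osteoblast-like barcodes Acp5 and Ctsk met in 193 with a product of 117.9, whereas Ctsk and Nfatc1 met in 256 with a product of 268.2. The first pair lay above its product and the second below it, and the difference between them was not tested. The median of Ctrl stromal- or osteoblast-like barcodes was 7694 UMIs, against 15594 with Acp5 and Ctsk and 12694.5 with Ctsk and Nfatc1. Monocyte- or macrophage-like barcodes with Acp5 and Ctsk had 16594 against 9453 for the class in Ctrl, and 12805 against 12873 in HLU. The part of depth in these counts was not tested.

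A few barcodes carried most of the Ctsk of the monocyte or macrophage class. With at least 10 UMIs of both Acp5 and Ctsk, a threshold chosen after seeing the data, 3 and 15 Ctrl and 5 and 3 HLU barcodes were found. Of these 2, 8, 5 and 3 were monocyte- or macrophage-like, or 0.755%, 2.00%, 0.973% and 0.194% of that class, and 1, 7, 0 and 0 were stromal- or osteoblast-like. The shares overlapped between groups. At 5 UMIs of both genes there were 16, 19, 5 and 4 barcodes, and at 20 there were 1, 10, 5 and 3. Just inside the threshold of 10 lay a barcode of Ctrl replicate 1 with 10 Acp5 and 122 Ctsk UMIs, and just outside one of HLU replicate 2 with 9 and 180.

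The 18 monocyte- or macrophage-like barcodes held 58.4%, 89.1%, 91.0% and 24.0% of their class's Acp5 UMIs, and 67.2%, 91.4%, 93.9% and 65.1% of its Ctsk. The richest, in Ctrl replicate 2, had 828 Acp5, 726 Ctsk, 220 Ckb and 471 Mmp9 UMIs of 24418. Without them Ctsk in the class stood at 26.3, 39.9, 7.83 and 11.8 CPM and Acp5 at 22.1, 44.7, 10.8 and 49.6. Most of the class's Ctsk UMIs thus lay in 2 to 8 barcodes a library, and so did most Acp5 UMIs in every library but HLU replicate 2. These shares depend on the threshold: of the 244 Ctsk UMIs of the class in Ctrl replicate 1, 122 came from the barcode just inside it and 42 from the other, and the barcode of HLU replicate 2 just outside it held 180 of 869.

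Other genes of the resorption machinery were found in the same 18 barcodes. Slc9b2, a sodium-proton exchanger of osteoclasts, was seen in 17 of them with 108 UMIs and had 0 UMIs in the other 2711 monocyte- or macrophage-like barcodes, an at least 3544-fold higher level against a floor of 3 counts over those barcodes. Mmp9, a matrix metalloproteinase that neutrophils also express, was seen in 17 at 3643 CPM against 46.1 in the others. Tcirg1 and Snx10, needed for acidification, were each seen in 16, at 411 and 357 CPM against 119 and 133 in the others. Jdp2 was seen in 15, Clcn7 in 14, Tnfrsf11a in 11, Ostm1 in 10, Itgb3 in 6, Car2 and Rab38 in 4 each and Siglec15 in 0. From Jdp2 to Rab38, in that order, levels were 502, 111, 111, 51.7, 83.7, 27.1 and 34.5 CPM. In the others they were 29.4, 34.5, 16.3, 25.8, 5.93, 10.6 and 2.93 CPM. The richest barcode alone held 11 of the 14 Rab38 and 21 of the 34 Itgb3 UMIs. Depth was not held equal between the others and the 18 barcodes. Of the members, Atp6v0d2 was seen in 17, Nfatc1 in 16, Ckb in 15, Ocstamp in 12, Dcstamp in 10, Oscar in 5 and Calcr in 0. The 8 stromal- or osteoblast-like barcodes had Atp6v0d2 in 4, Nfatc1 in 3, Ckb, Ocstamp and Oscar in 1 each and Dcstamp and Calcr in 0. Of the marker list they had Mmp9 and Snx10 in 3 each, and Slc9b2, Itgb3, Tcirg1 and Clcn7 in 2 each. Car2, Tnfrsf11a and Jdp2 were seen in 1 each and Rab38, Ostm1 and Siglec15 in 0. A barcode called a doublet held all 14 Ckb, 4 Ocstamp and 2 Oscar UMIs of the 8, with 3 of 4 Slc9b2 and 32 of 34 Mmp9. Of the 18, 1 and 4 in the Ctrl libraries and 0 in HLU were called doublets, and 3 of Ctrl replicate 2 with 3768 to 4641 UMIs had 10350 to 13359 CPM of chondrocyte markers.

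**Figure D4:**
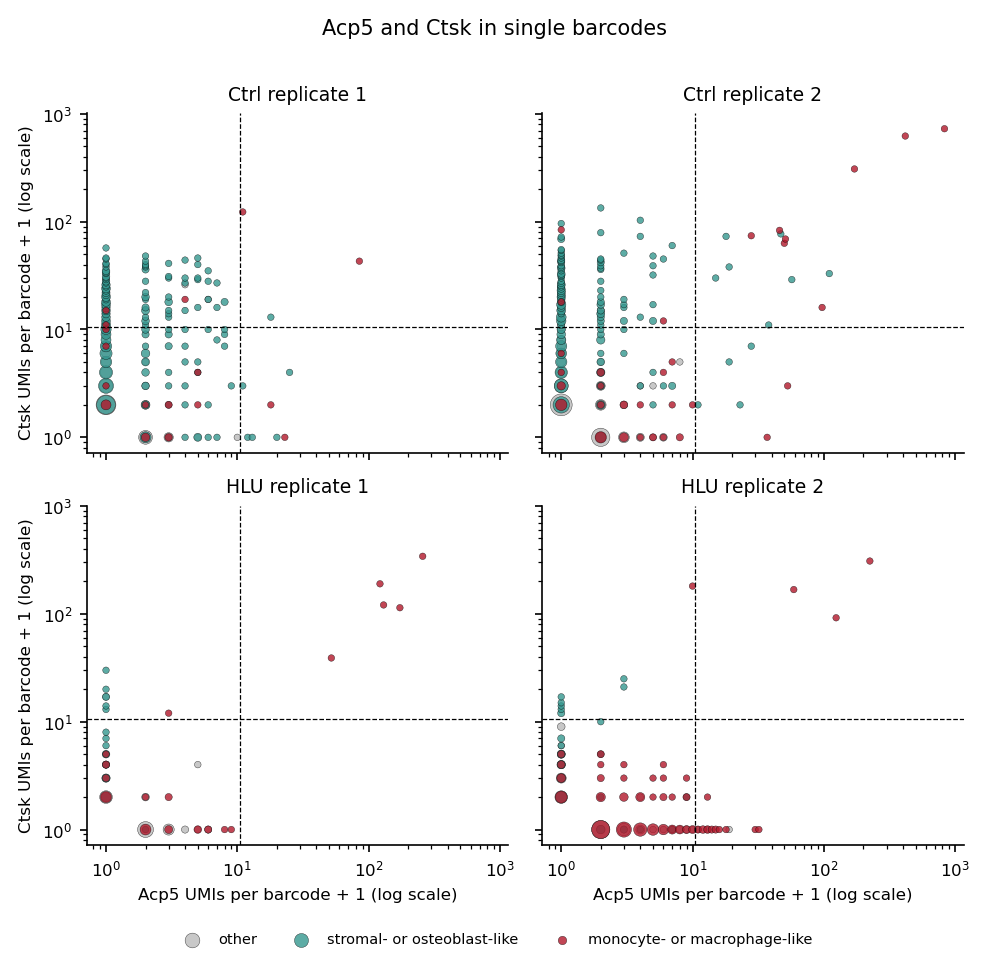
Ctsk against Acp5 UMIs per barcode, each plus 1 on log axes, in a panel per library, with colour for class, point size for the number of barcodes at that point and dashed lines at the threshold of 10 UMIs. The upper right corner holds 18 monocyte- or macrophage-like barcodes in all. Of the stromal- or osteoblast-like barcodes, it holds 1 of 1697 and 7 of 884 in Ctrl and 0 of 60 and 0 of 111 in HLU.

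**Figure D5:**
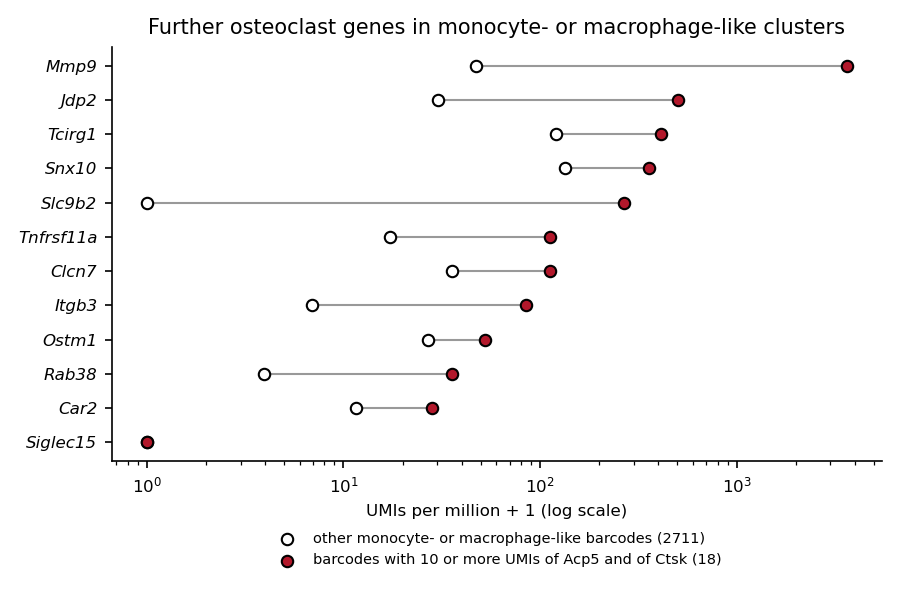
Level of the 12 genes of the osteoclast marker list, in CPM plus 1 on a log axis, in the 18 monocyte- or macrophage-like barcodes with at least 10 UMIs of Acp5 and of Ctsk (filled) and the other 2711 (open). Each gene but Siglec15, which is at 0 in both, lies higher in the 18 barcodes, with Mmp9 at 3643 against 46.1.

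Barcodes under 1000 UMIs, which were not retained, also held members. In Ctrl replicate 2 they had 246 Acp5 and 316 Ctsk UMIs in 2212 barcodes, or 189.7 and 243.7 CPM, against 9.57 and 60.9 CPM in Ctrl replicate 1. HLU replicate 1 stood at 46.2 and 47.6 CPM. HLU replicate 2 had only 267 such barcodes, with 3 Acp5 and 0 Ctsk UMIs.

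The members were also compared by their levels over the 28 clusters, libraries pooled, as a description. Ctsk was most like Ckb among the members (Pearson r of log2 CPM 0.89) and then Atp6v0d2 (0.80), while Dcstamp was like Oscar (0.69). Outside the list, Dse (0.913) and Slc41a2 (0.913) were among the 3 genes nearest to Ctsk. Ckb was nearest to Ahnak (0.948), and Acp5 to Rasgrp1 (0.869), Tmem268 (0.861) and Ctss (0.851). Ocstamp was nearest to Cmklr1 (0.883), Dcstamp to Ms4a4a (0.846) and Atp6v0d2 to Metrnl (0.80). The clusters come from the same libraries and differ in depth, and free RNA shared between them was not measured.

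The 51 other genes of the pathway were set beside the members. On whole-library counts 50 were tested, and edgeR called 14 higher and 3 lower, beside 4.95% higher and 15.9% lower over all genes. All 10 neutrophil markers were detected in every library and summed to 60922 and 87818 CPM in Ctrl and 178054 and 171031 in HLU, and their part in these calls was not tested. By role, 6 of 11 adaptors and kinases were higher, 3 of 12 acid and protease genes, 2 of 5 fusion genes, 1 of 9 transcription factors, 1 of 5 inhibitors and 1 of 6 ligands and receptors, while 2 of those ligands and receptors and 1 of 2 adhesion genes were lower. Among the 10 largest were Tnfrsf11b, the decoy receptor, at −5.57 on the log2 scale (edgeR adjusted p = 0.00448), the Csf1r ligand Il34 at −3.24 (0.0261), carbonic anhydrase Car2 at 3.02 (0.0437) and the M-CSF receptor Csf1r at 1.68 (0.0371). Car2 lost its call without barcodes over 0.2% haemoglobin. Btk, Syk, Ptk2b, Plcg2 and Fcer1g, all listed under the role of adaptors and kinases, rose by 1.88, 1.65, 1.63, 1.63 and 1.62, and Itgav fell by 1.61. Of these 10 genes, Tnfrsf11b lost its call without Ctrl replicate 1 (adjusted p up to 0.0760, edgeR) and the other 9 lost it with either Ctrl library left out, in the fits with 0 and 562 calls. In monocyte- or macrophage-like sums 0 of 48 were called (4 at an unadjusted p under 0.05, edgeR).

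RANKL itself, Tnfsf11, was higher per stromal- or osteoblast-like barcode. It had 101 and 213 UMIs in Ctrl and 231 and 541 in HLU, or 6.98 and 20.9 against 281 and 254 CPM of that class, and was seen in 2.47%, 5.43%, 45% and 35.1% of the barcodes. In the stromal, osteoblast and chondrocyte sums its log2 fold change was 4.37 (SE 0.51, edgeR adjusted p = 0.0424), a call lost in 4 of 15 alternatives with the direction kept: without either Ctrl library, without barcodes over 40000 UMIs and with no integration. Tnfrsf11b in stromal- or osteoblast-like barcodes had 7655 and 6834 UMIs in Ctrl and 9 and 189 in HLU, or 529 and 670 against 10.9 and 88.8 CPM, and in the 3-class sums it was not called (log2 fold change −1.93, edgeR adjusted p = 0.0568). Csf1 stood at 184 and 186 CPM of the class in Ctrl and 360 and 964 in HLU, also without overlap. In the 3-class sums it was not called (log2 fold change 1.88, edgeR adjusted p = 0.139), and in whole-library sums, also not called, it was lower in HLU (−1.16, edgeR adjusted p = 0.157). These values rest on 60 and 111 HLU barcodes, in which Csf1r, the M-CSF receptor of monocytes, stood at 7.30 and 86.9 CPM against 2.76 and 3.14 in Ctrl. With doublets left out, 110 of 111 and 154 of 221 HLU barcodes of the 3-class sums remained. In the 3-class sums all 8 stromal markers were detected and stood at 27972 and 28417 CPM in Ctrl and 4941 and 6377 in HLU. All 8 osteoblast markers were detected too, and stood higher in HLU, at 1263 and 1172 CPM in Ctrl and 4001 and 1435 in HLU. The part of both marker lists in these differences was not tested. Of the 47 pathway genes tested there, Tcirg1 was the other call (log2 fold change 1.54, edgeR adjusted p = 0.0494, lost in 6 of 15 alternatives).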

How the data were processed

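The deposited values are raw UMI counts per gene and barcode, which the authors made with Cell Ranger 6.0.0 on the mouse reference mm10 (3.0.0), without normalization. Depth per library was 57925383, 61296053, 47819046 and 99849070 UMIs. Seurat 5.3.0 under R 4.3.3 integrated the libraries on 2000 variable genes, from which the 9 members were left out, with 50 principal components and a resolution of 1. A cluster was named when at least 3 of its markers were raised and the 3 largest of their log2 fold changes averaged 1.5 or more. No name was given where its leading genes held more markers of an unrelated class. The same held where its UMIs were low and no marker was among its leading genes. Clusters were made with gene names sorted in the C locale (reported) and again in another locale, which was kept as an alternative because it changed cluster names. Doublets were scored with Scrublet (scanpy 1.11.5) and kept. The highest scores of each library were called, in a number set beforehand at a rate of 0.8% per 1000 retained barcodes. This gave 432 and 468 calls in Ctrl and 483 and 755 in HLU. UMI sums per library were tested with edgeR 4.0.16 (TMM, quasi-likelihood test, Benjamini-Hochberg, threshold 0.05), and shares by exact two-sided permutation tests (scipy 1.17.1). In simulated sums over whole libraries edgeR recovered 95 of 200 genes changed by 2 on the log2 scale, with 6 false calls among 15125 genes. DESeq2 1.42.0, no low-count filter, the replicate block, resolutions of 0.5 and 2, no integration, doublets out, over 40000 UMIs out, haemoglobin limits and each library left out were the alternatives. The gene sort order, the stromal and osteoblast clusters without the chondrocyte clusters, the pooling of stromal with osteoblast clusters and the barcodes with 10 UMIs of both Acp5 and Ctsk were chosen after seeing the data. The members and lists were chosen with earlier results of these data known. The members are always named; pathway genes are named when called, at most 10 per comparison by size of fold change, and the 3 genes most like each member and the 10 leading non-members of barcodes with at least 4 members could be named.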

Additional observations from a re-analysis of the deposited data

Results flagged for a closer look

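For Ctsk and Nfatc1, some classes of cells were higher and others lower in both HLU libraries than in both Ctrl libraries, and the difference was not tested. The groups overlapped in 1 of 6 classes for Ctsk, the monocyte- or macrophage-like, and in 5 of 8 for Nfatc1. Both HLU libraries lay below both Ctrl libraries for Ctsk, in CPM within the class, in stromal- or osteoblast-like (a difference of means of -282.4), B-like (-73.88), neutrophil-like (-6.967) and neutrophil-progenitor-like barcodes (-4.562). Neutrophil-like barcodes serve above as a background of untested source, and their stromal markers summed to 904 and 989 CPM in Ctrl and 3.50 and 2.76 in HLU. In chondrocyte-like barcodes both HLU libraries lay above both Ctrl libraries (23.47 higher). For Nfatc1, B-like (28.97) and basophil- or mast-like barcodes (8.203) were higher in both HLU libraries and stromal- or osteoblast-like ones lower (-17.28). The mixture of B-like clusters differed between the groups, as given above. The chondrocyte-like values rest on 51 and 110 HLU barcodes.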

How the results depend on the processing

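Over 243 alternative values of the members, 208 kept direction and side of the threshold, 17 passed it in the same direction, 9 no longer passed and 9 turned. With a library left out, where a lone sample is assumed to vary like the other group, the log2 fold changes that turned ranged in whole-library sums from -0.14 to 1.09 for Dcstamp, -1.76 to 1.85 for Ocstamp and -1.07 to 0.93 for Acp5, and in monocyte or macrophage sums from -2.90 to 7.32 for Ocstamp, -1.99 to 0.75 for Atp6v0d2, -2.11 to 0.74 for Acp5 and -0.25 to 0.79 for Nfatc1. The turns were Dcstamp at -0.14 without Ctrl replicate 1, Nfatc1 at -0.25 without HLU replicate 1, Atp6v0d2 at 0.54 without HLU replicate 2 and the others without Ctrl replicate 2. With doublets left out Atp6v0d2 turned to 0.45 in monocyte or macrophage sums. Without HLU replicate 1 a single HLU library remained, and these fits called the most genes of all alternatives. There edgeR also called Atp6v0d2 and Nfatc1 lower in whole-library sums and Ctsk and Nfatc1 lower in stromal, osteoblast and chondrocyte sums. In the stromal, osteoblast and chondrocyte sums Ctsk was also called lower with no filter and by DESeq2. Ckb was called lower there with no filter and without HLU replicate 2, which again left a single HLU library. Of all genes in these sums, 1273 of 20417 were called lower with no filter and 790 of 13292 by DESeq2. Genes called by edgeR ranged from 0 to 7492 with a library left out in whole-library sums, from 0 to 4482 in monocyte or macrophage sums and from 0 to 3389 in stromal, osteoblast and chondrocyte sums, each 0 without Ctrl replicate 1 (2503, 249 and 1377 genes at an unadjusted p under 0.05) and the last pair also without Ctrl replicate 2 (264 and 1318). Against 9 genes, monocyte or macrophage sums gave 656 with no filter, 215 with DESeq2, 22 without barcodes over 40000 UMIs, 17 at resolution 0.5, 14 at resolution 2, 2 with doublets left out and 0 with no integration (470 at an unadjusted p under 0.05). Against 275 genes, stromal, osteoblast and chondrocyte sums gave 2307 with no filter, 1458 with DESeq2 (median log2 fold change 0.13 over the genes it tested, against -0.02), 98 with doublets left out, and 0 both with no integration and without barcodes over 40000 UMIs (2705 and 2942 at an unadjusted p under 0.05). Leaving the chondrocyte clusters out gave 396.

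Under the other gene sort order, chosen after seeing the data, 17 and 239 genes were called in these sums, no member's call changed, and the share of monocyte-like barcodes with at least 4 members was 0.862%, 2.47%, 1.33% and 0.137%. The replicate block gave 3308 calls in whole-library sums, 74 in monocyte or macrophage sums and 411 in stromal, osteoblast and chondrocyte sums; the numbers do not pair the samples (correlations of deviations of -0.0615, 0.0267 and -0.0420). The cause of these differences was not tested. Oscar, Calcr, Dcstamp and Ocstamp had 10 to 111 UMIs in all, of which 75 of 111 for Ocstamp, 58 of 102 for Dcstamp and 19 of 29 for Oscar lay in 18 barcodes, so low depth and few such barcodes cannot be told apart.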
